A study of Mus musculus with 12 samples.

Results

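The transcripts described here are those of 33 genes of cholesterol and fatty acid synthesis, listed by name: 18 enzymes of the sterol branch, 11 enzymes of the fatty acid branch, and 4 genes of regulation and sterol transfer (Srebf1, Srebf2, Insig1 and Stard4). Of the 33 genes, 31 were matched to at least 1 probe set through the array's annotation, with 62 of the 22690 probe sets in all, while Acat2 and Insig1 were matched to none and are not analysed here. After the 40% of probe sets with the weakest signal had been left out, 50 probe sets of 29 of these genes remained, among 13575 probe sets of 7945 genes. The study measured mouse embryonic fibroblasts (MEFs), primary connective tissue cells taken from embryos on day 13.5 and grown to passage 2. They were either wildtype or null for the retinoblastoma gene (Rb null, Rb-/- in the labels), and each genotype was either left untreated or exposed to the DNA-crosslinking platinum drug cisplatin at 16 µM for 24 h before harvest. Each of the 4 groups, namely untreated wildtype, untreated Rb null, cisplatin-treated wildtype and cisplatin-treated Rb null, was measured on 3 Affymetrix arrays. The Rb allele, the strain and the number of embryos behind each culture are not given in the sources used here. Because the design speaks of 4 RNA samples with 3 hybridizations of each, the arrays of a group may be technical replicates, and p-values then cover hybridization error alone.

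Cholesterol is built from acetyl-CoA through mevalonate, isoprenoid units, squalene and lanosterol, and fatty acids are built from the same acetyl-CoA through malonyl-CoA, then elongated and desaturated. Both branches are controlled by the SREBP transcription factors, which Srebf1 and Srebf2 encode: when sterols in the endoplasmic reticulum are low, the precursors are carried to the Golgi by SCAP, cut by proteases and released to the nucleus, and when sterols are plentiful INSIG proteins hold them back. Dividing fibroblasts need both products for new membranes. SREBP binds sterol regulatory elements, commonly beside boxes for the factor NF-Y, and the retinoblastoma protein restrains the E2F factors.

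The promoters of 26 of the 33 genes were found in a RefSeq promoter table (build GRCm38.p6, 250 bases before to 50 after the start of each gene). The stretches below are the 200 bases before the start of 6 genes. On the probe set that stood for each gene, 3 fell with cisplatin in both genotypes (Hmgcs1, Mvk and Srebf2). The other 3 rose with it in at least 1 genotype (Idi1, Sc5d and Dhcr7). Not all probe sets of Hmgcs1, Srebf2 and Sc5d gave these calls. The stretches are shown so that the promoters of genes that moved in opposite directions can be read side by side. Capitals mark the NF-Y box CCAAT, which reads ATTGG on the other strand, and the sterol regulatory element core CACNCCAC.
Hmgcs1 (chr13:119690151-119690350, forward strand): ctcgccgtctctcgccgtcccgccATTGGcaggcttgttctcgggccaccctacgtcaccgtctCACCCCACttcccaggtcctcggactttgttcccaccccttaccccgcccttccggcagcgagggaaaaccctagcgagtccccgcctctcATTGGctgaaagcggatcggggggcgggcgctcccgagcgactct
Mvk (chr5:114444069-114444268, forward strand): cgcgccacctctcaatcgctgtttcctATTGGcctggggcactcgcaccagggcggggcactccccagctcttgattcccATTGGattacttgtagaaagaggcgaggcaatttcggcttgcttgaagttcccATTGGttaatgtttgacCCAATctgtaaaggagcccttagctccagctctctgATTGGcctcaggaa
Srebf2 (chr15:82147069-82147268, forward strand): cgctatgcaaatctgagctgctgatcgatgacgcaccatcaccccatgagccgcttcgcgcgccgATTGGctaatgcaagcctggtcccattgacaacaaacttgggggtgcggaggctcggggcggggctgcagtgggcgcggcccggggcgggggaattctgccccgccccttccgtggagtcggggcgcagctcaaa
Idi1 (chr13:8885406-8885605, forward strand): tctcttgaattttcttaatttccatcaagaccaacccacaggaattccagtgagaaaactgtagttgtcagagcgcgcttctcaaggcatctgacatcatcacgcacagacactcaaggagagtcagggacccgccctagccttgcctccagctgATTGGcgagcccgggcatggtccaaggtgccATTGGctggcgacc
Sc5d (chr9:42264301-42264500, reverse strand): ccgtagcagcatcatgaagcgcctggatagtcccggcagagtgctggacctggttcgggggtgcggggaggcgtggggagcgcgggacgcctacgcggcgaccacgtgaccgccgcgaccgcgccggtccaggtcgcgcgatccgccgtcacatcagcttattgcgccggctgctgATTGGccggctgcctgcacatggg
Dhcr7 (chr7:143822967-143823166, forward strand): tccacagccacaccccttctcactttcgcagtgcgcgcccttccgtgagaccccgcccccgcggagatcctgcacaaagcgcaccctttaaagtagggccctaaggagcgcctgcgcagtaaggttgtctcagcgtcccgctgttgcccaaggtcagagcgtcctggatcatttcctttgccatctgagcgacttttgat

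CCAAT was found on either strand in the 300-base window of 21 of the 26 promoters (80.8%), against 38.0% of the 27025 promoters in the table. The box stood in genes that fell and in genes that rose: Mvk had 5 copies in the stretch shown, Hmgcs1 and Idi1 had 2 each, Srebf2 and Sc5d had 1 each, and Dhcr7 had 0. CACNCCAC was found in 3 of the 26 windows (Acat2, Hmgcs1 and Insig1; 11.5%, against 6.12% of all), and in Hmgcs1 it began 136 bases before the start. The E2F element TTTNNCGC was found in 1 window, that of Fasn (3.85%, against 5.29% of all). No 2 matches overlapped in the stretches shown. A match describes the letters of a window, and its absence says only that these letters are not there.

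Signals of the 12 arrays were on a common scale, and the correlation of log2 signals between arrays was 0.981 to 0.992 in the same group and 0.806 to 0.952 in different groups. Rb1 had a signal of 459.7 ± 35.4 (SD, n = 3) in wildtype and of 94.0 ± 9.99 in Rb null cells without treatment, and of 383 ± 60.1 and 89.6 ± 14.4 after cisplatin. The untreated wildtype arrays differed from the other 9 in sex-linked transcripts: Xist, expressed from the inactive X chromosome, was at 132 ± 26.7 there and at group means of 2379 to 3443 elsewhere, and the Y-linked Eif2s3y was at 478 ± 7.90 there and at 1.27 to 6.63 elsewhere. In every comparison with untreated wildtype cells, genotype or treatment and the sex of the culture therefore cannot be told apart. Of the genes described here, Nsdhl and Ebp are X-linked.

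All 10 fibroblast markers on the list passed the filter on weak signals, and their summed signal was 64157 to 67286 (wildtype) and 64190 to 66633 (Rb null) without cisplatin, and 56350 to 58795 (wildtype) and 44164 to 44884 (Rb null) with it. All 10 macrophage markers on the array passed it as well, with sums of 4951 to 5197, 6838 to 7036, 10612 to 11105 and 5603 to 5870 in the same order of groups. By limma, cisplatin raised 5 of the 10 macrophage markers and lowered 0 in wildtype cells, whereas in Rb null cells 6 fell and 2 rose. Of the 10 fibroblast markers, 3 rose and 4 fell in wildtype cells, and 0 rose and 4 fell in Rb null cells by the same test. Of all genes, 14.8% were called higher and 12.7% lower in wildtype, and 16.6% and 20.3% in Rb null cells. Of 10 adipocyte markers 3 passed the filter. Their sum over all 10 was 645 to 733, 707 to 875, 972 to 1087 and 1092 to 1202. Adipoq, a defining adipocyte gene, was at group means of 7.43 to 12.9, and of the 3 tested markers Cebpa rose with cisplatin (log2 1.99 ± 0.13 in wildtype and 2.16 ± 0.13 in Rb null cells), Lpl fell (-0.72 ± 0.18 and -0.71 ± 0.18) and Retn was not called. Lpl was also higher in Rb null than in wildtype cells without and with cisplatin (0.65 ± 0.18 and 0.66 ± 0.18). Of 6 hepatocyte markers 0 passed the filter. In a bulk culture fewer cells of a type and less RNA per cell cannot be told apart, and the part of these cell types in the results below was not tested.

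Without cisplatin, 2 of the 29 lipid synthesis genes differed between the genotypes, both higher in Rb null cells. Idi1, the isomerase that makes the isoprenoid unit dimethylallyl diphosphate, was 1.88-fold higher (log2 difference 0.91 ± 0.0868, standard error; limma, adjusted p = 1.56e-06). Stard4, a carrier of cholesterol between membranes, was 1.73-fold higher (log2 0.79 ± 0.12, adjusted p = 0.000100). To be called, a gene needed an adjusted p under 0.05 (Benjamini-Hochberg, all 13575 probe sets) and a difference of at least 1.5-fold. By this rule 6.9% of the 29 genes were called, against 13.2% of all 7945 genes. Calls as higher made up 2 of 29, against 8.07% of all genes, and calls as lower 0 of 29, against 5.08%. At an unadjusted p under 0.05 of the limma test, 13 of the 29 genes were higher and 5 lower. Of all 7945 genes, 1815 were higher and 1685 lower at that threshold.

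After cisplatin, again 2 of the 29 genes were called between genotypes, both higher in Rb null cells. Idi1 differed 2.74-fold (log2 1.46 ± 0.0868, adjusted p = 1.17e-08) and Dhcr7, the reductase of the last step to cholesterol, 1.56-fold (log2 0.64 ± 0.12, adjusted p = 0.000554). The share of 6.9% stood against 23.0% of all genes (9.67% higher and 13.3% lower). By limma 0 of 29 were called lower on their main probe sets. At an unadjusted p under 0.05 of that test 9 were lower and 8 higher, against 2629 and 2029 of all 7945 genes. Elovl6, which elongates palmitate to stearate, stayed under the minimum fold (log2 -0.58 ± 0.13, adjusted p = 0.00149), as did Cyp51, the lanosterol demethylase (-0.52 ± 0.0884, adjusted p = 0.000216), and Mvd, the mevalonate diphosphate decarboxylase (-0.50 ± 0.16, adjusted p = 0.0186). In the other direction Stard4 (0.53 ± 0.12, adjusted p = 0.00148), the squalene synthase gene Fdft1 (0.50 ± 0.0876, adjusted p = 0.000266) and the desaturase gene Fads2 (0.45 ± 0.0984, adjusted p = 0.00157) were likewise under it. The call of Dhcr7 was lost without cisplatin-treated Rb null array a (log2 0.58) or cisplatin-treated wildtype array c (0.53), which left 1 gene called higher. Without any 1 of cisplatin-treated Rb null arrays b and c and wildtype arrays b and c, 1 gene was called lower.

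In wildtype cells cisplatin lowered 6 of the 29 genes and raised 1. The genes that fell were Elovl6 (log2 -0.84 ± 0.13, adjusted p = 5.43e-05), Nsdhl (-0.82 ± 0.11, adjusted p = 2.71e-05), Hmgcs1 (-0.82 ± 0.0914, adjusted p = 2.82e-06), Mvk (-0.75 ± 0.23, adjusted p = 0.0130), the sterol reductase gene Tm7sf2 (-0.62 ± 0.17, adjusted p = 0.00655) and Srebf2 (-0.60 ± 0.0921, adjusted p = 6.61e-05). Sc5d, which introduces a double bond into the sterol ring late in the pathway, rose 2.19-fold (log2 1.13 ± 0.0728, adjusted p = 8.21e-09). By limma's test 20.7% of the 29 genes were called lower and 3.45% higher, 24.1% together, against 12.7%, 14.8% and 27.5% of all genes. Without untreated wildtype array 3 the count of genes that fell was 3, since Mvk (log2 -0.65, adjusted p = 0.0516), Tm7sf2 (-0.46) and Srebf2 (-0.58) were no longer called. Mvk also lost its call without untreated wildtype array 2 (adjusted p = 0.0551) or cisplatin-treated wildtype array a (adjusted p = 0.0705), and Srebf2 without cisplatin-treated wildtype array b (log2 -0.58).

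In Rb null cells cisplatin lowered 8 of the 29 genes and raised 3. On the main probe set of each gene, Elovl6 fell most, 3.53-fold (log2 -1.82 ± 0.13, adjusted p = 1.27e-08), followed by Mvk (-1.35 ± 0.23, adjusted p = 0.000122), Srebf2 (-1.28 ± 0.0921, adjusted p = 1.79e-08), Hmgcs1 (-1.10 ± 0.0914, adjusted p = 8.22e-08), Fdps (-0.99 ± 0.0835, adjusted p = 9.49e-08), Elovl5 (-0.87 ± 0.0806, adjusted p = 2.78e-07), Nsdhl (-0.86 ± 0.11, adjusted p = 1.15e-05) and Sqle (-0.76 ± 0.0991, adjusted p = 9.26e-06). The second probe set of Mvk fell further than any of these (-2.37 ± 0.28, adjusted p = 4.07e-06). Its signals on the treated Rb null arrays were weak (21.5, 40.7 and 64.8), with the 25th percentile of all signals at 45.8, so the size of this fall is uncertain. The genes that rose were Sc5d (log2 0.96 ± 0.0728, adjusted p = 3.06e-08), Dhcr7 (0.96 ± 0.12, adjusted p = 8.17e-06) and Idi1 (0.77 ± 0.0868, adjusted p = 2.23e-06). By limma's test 27.6% of the 29 genes were called lower and 10.3% higher, 37.9% together, against 20.3%, 16.6% and 36.9% of all genes, so that the share called was near that of all genes. The log2 changes of this comparison do not use the untreated wildtype arrays, although the spread and the filter were taken over all 12 arrays. All 11 calls held with each of the 6 arrays compared left out in turn. The matrix of log2 changes shows these calls beside the genes that were not called, such as Mvd (log2 -0.55 ± 0.16, adjusted p = 0.00818) and Elovl1 (0.29 ± 0.0557, adjusted p = 0.000326), which stayed under the minimum fold, and Pmvk (-0.12 ± 0.14, adjusted p = 0.467).

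**Figure D1:**
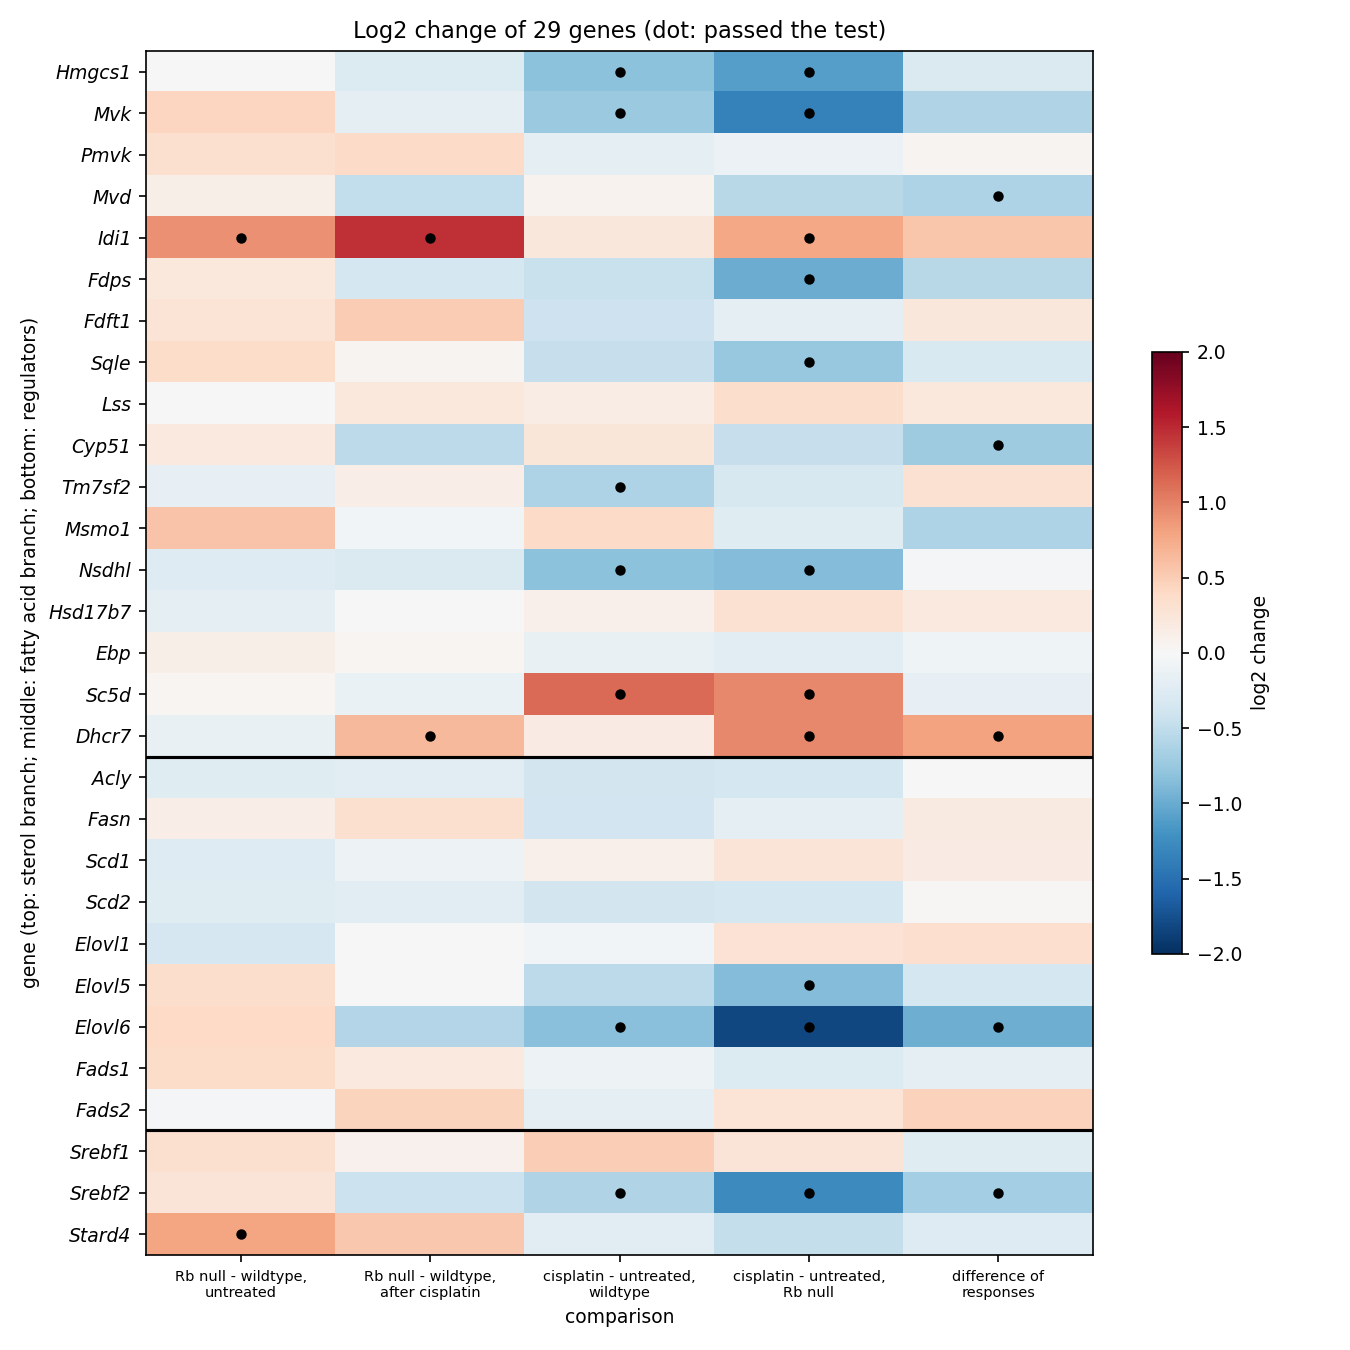
Log2 change (colour) of the 29 tested genes (rows, in pathway order) in the 5 comparisons (columns); dots mark genes that passed adjusted p under 0.05 and 1.5-fold. The cisplatin columns hold 7 dots for wildtype and 11 for Rb null cells, and the genotype columns 2 each.

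The cisplatin responses of the genotypes differed for 5 of the 29 genes when the difference itself was tested (Rb null minus wildtype). It was negative for Elovl6 (log2 -0.98 ± 0.18, adjusted p = 0.000681), Cyp51 (-0.71 ± 0.13, adjusted p = 0.000486), Srebf2 (-0.68 ± 0.13, adjusted p = 0.000968) and Mvd (-0.61 ± 0.23, adjusted p = 0.0483), and positive for Dhcr7 (0.80 ± 0.17, adjusted p = 0.00245). On their main probe sets Cyp51 and Mvd were called in neither genotype alone: Cyp51 had a log2 change of 0.25 ± 0.0884 in wildtype against -0.47 ± 0.0884 in Rb null cells, and Mvd 0.063 ± 0.16 against -0.55 ± 0.16. A second probe set of each gene was called lower with cisplatin in Rb null cells (-0.63 for Cyp51 and -0.86 for Mvd). By limma's test 13.8% of the 29 genes had a called negative and 3.45% a called positive difference, 17.2% together, against 15.0%, 8.70% and 23.7% of all genes. The call of Mvd was lost without 9 of the 12 arrays, each left out alone: untreated Rb null array 1 (log2 -0.46, adjusted p = 0.115), all 3 untreated wildtype arrays, cisplatin-treated Rb null arrays a and c and all 3 cisplatin-treated wildtype arrays. Without untreated wildtype array 1, 2 genes had a called positive difference. The difference of Srebf2 was under 1.5-fold after quantile normalization (log2 -0.57) or median centring (-0.58). Among the markers, 6 of 10 macrophage and 7 of 10 fibroblast genes also had a called negative difference, and their part in these values was not tested.

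**Figure D2:**
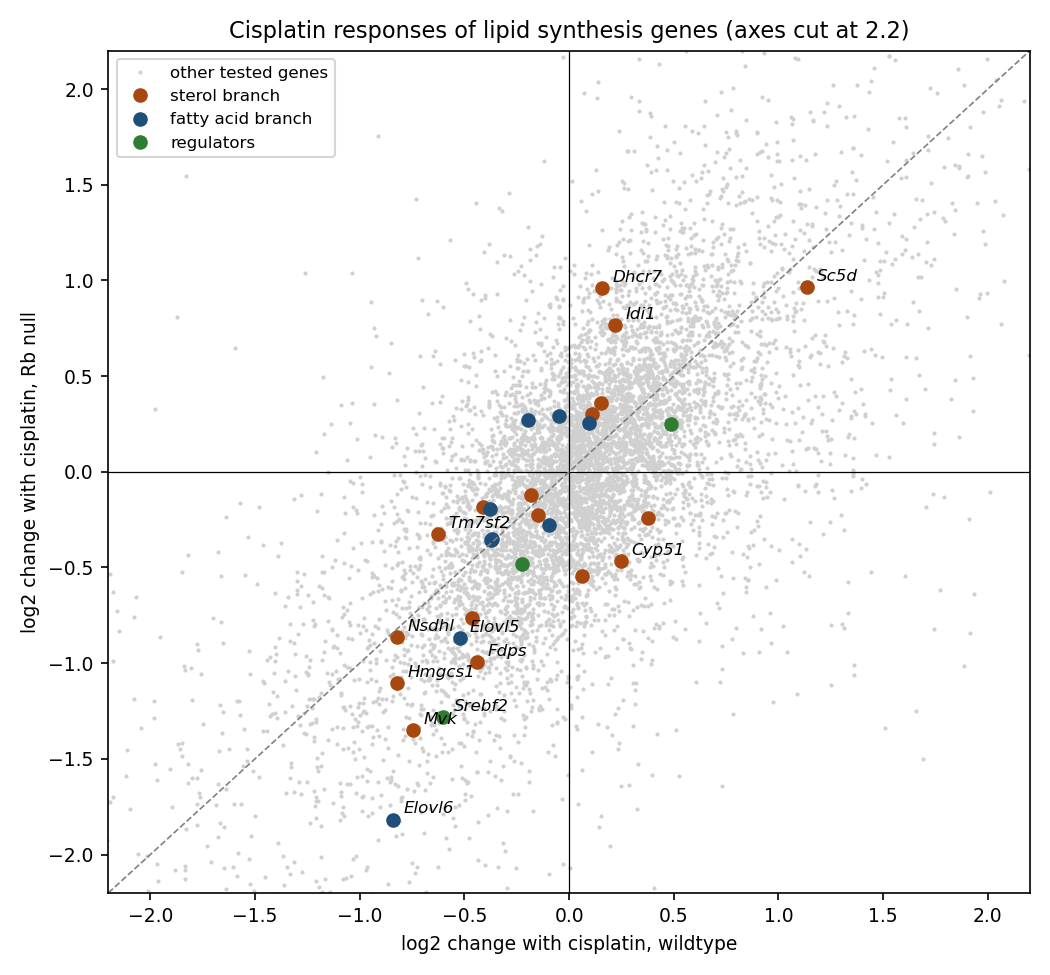
Log2 change with cisplatin in wildtype (horizontal) and in Rb null cells (vertical) for the 17 sterol, 9 fatty acid and 3 regulator genes (coloured) and the other tested genes (grey); the dashed line marks equal responses, and genes beyond 2.2 on either axis are not drawn. Elovl6 (-0.84, -1.82), Srebf2 (-0.60, -1.28) and Cyp51 (0.25, -0.47) lie below the line and Dhcr7 (0.16, 0.96) above it.

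Among the first enzymes of the mevalonate pathway, Hmgcs1 encodes the synthase that condenses acetoacetyl-CoA with acetyl-CoA. Its signal was 2023, 2136 and 2102 on the untreated and 1067, 1189.7 and 1283 on the treated wildtype arrays, and 1791, 2297 and 2218 on the untreated and 957, 988 and 957 on the treated Rb null arrays. All 6 treated arrays lay below all 6 untreated arrays. The treated genotypes did not overlap either, although their difference (log2 -0.28 ± 0.0914, adjusted p = 0.0193) was under 1.5-fold. Mvk, mevalonate kinase, had signals of 144, 223 and 224 on the untreated and 77.6, 136 and 128 on the treated wildtype arrays, and 301, 249.5 and 245 on the untreated and 131, 85.7 and 81.9 on the treated Rb null arrays. Treated and untreated arrays of the same genotype did not overlap, while the treated genotypes did. Pmvk, the kinase of the next step, was called in no comparison and had log2 changes with cisplatin of -0.18 ± 0.14 (wildtype) and -0.12 ± 0.14 (Rb null).

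Idi1 had the largest called genotype difference of the 29 genes. Its signal was 346, 442 and 399 on the untreated and 468, 437 and 478 on the treated wildtype arrays, and 748, 733 and 765 on the untreated and 1271, 1269.7 and 1303 on the treated Rb null arrays. Every Rb null array lay above every wildtype array, and the treated Rb null arrays lay above the untreated ones. The cisplatin response was log2 0.22 ± 0.0868 in wildtype cells, under 1.5-fold, and 0.77 ± 0.0868 in Rb null cells. Their difference (log2 0.55 ± 0.12, adjusted p = 0.00301) was also under 1.5-fold. A second probe set gave called genotype differences of log2 0.61 ± 0.16 without and 1.26 ± 0.16 with cisplatin, and a called difference of responses (0.64 ± 0.22, adjusted p = 0.0328).

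**Figure D3:**
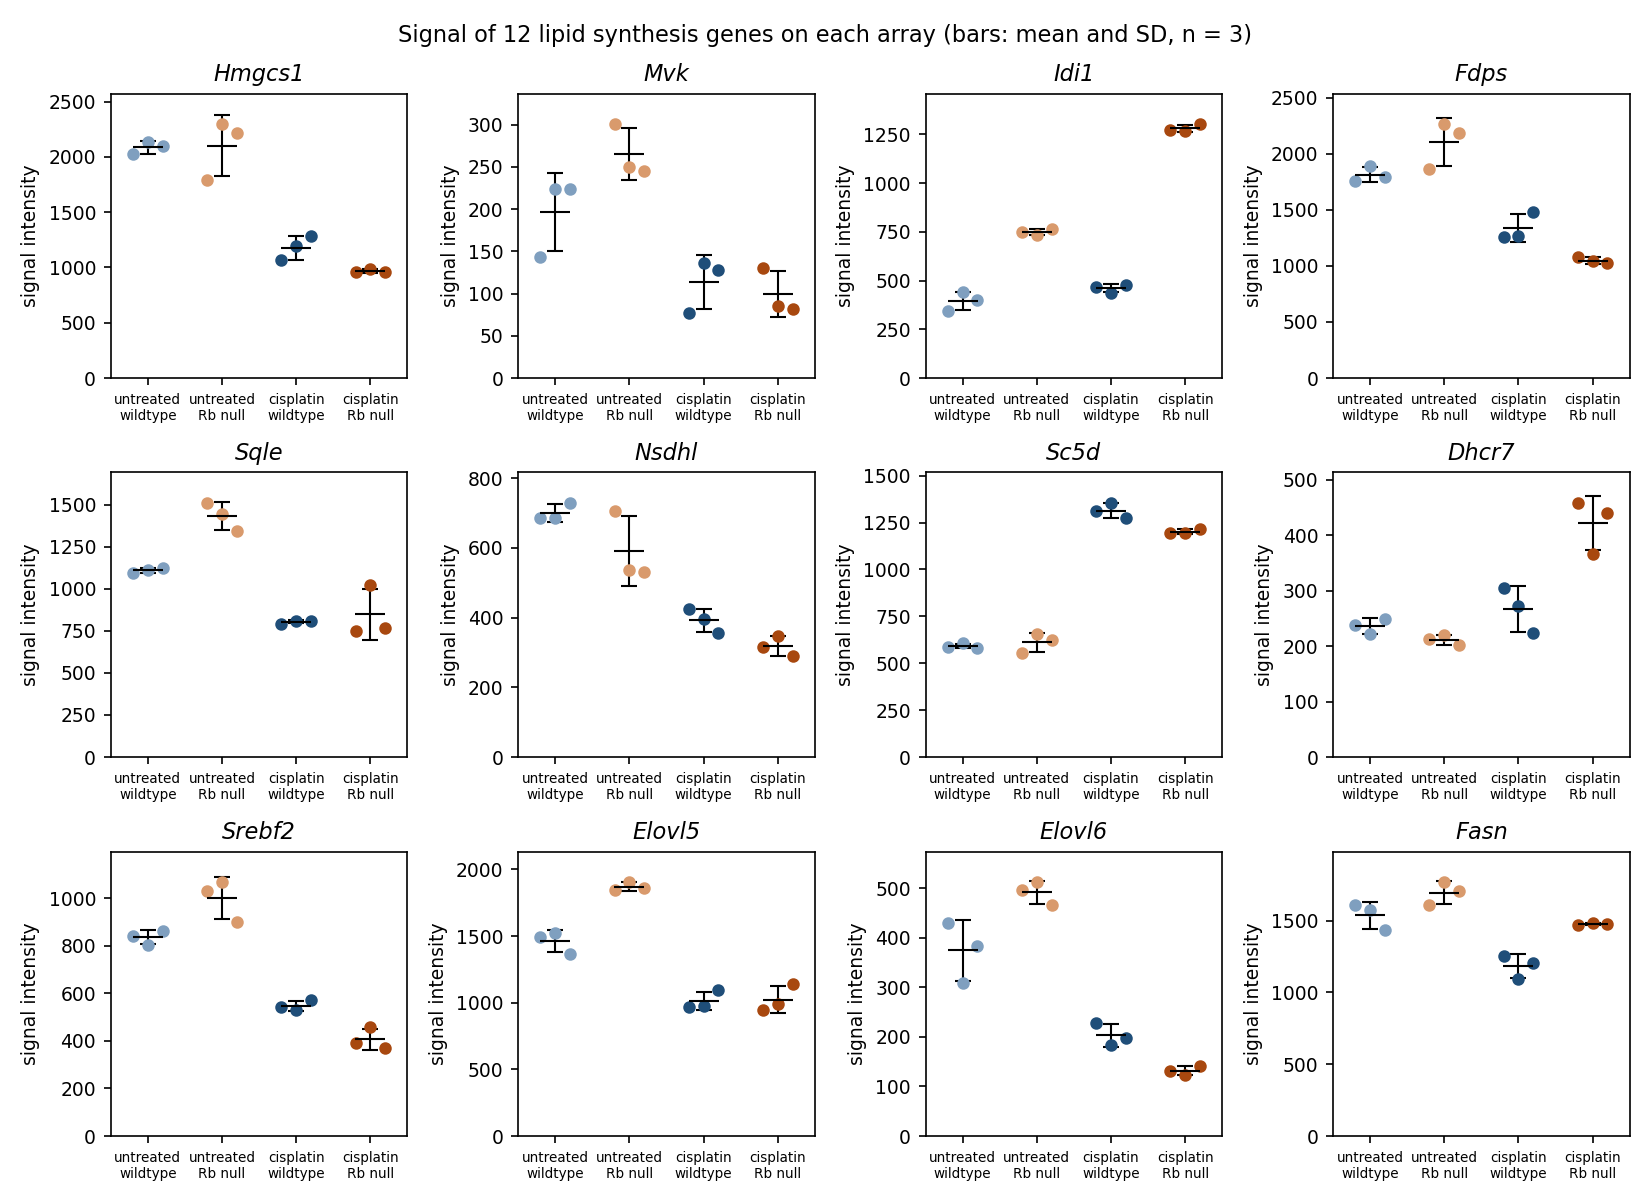
Signal intensity (vertical axis, from 0) of 12 genes on each of the 12 arrays, by group; points are arrays and bars the mean and SD (n = 3). Every Rb null array of Idi1 lies above every wildtype array, all 6 treated arrays of Hmgcs1, Srebf2 and Elovl6 lie below the 6 untreated ones, and those of Sc5d lie above them.

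Fdps, Fdft1 and Sqle lead from the isoprenoid units to squalene and its epoxide. Fdps, farnesyl diphosphate synthase, went from 1811 ± 67.6 to 1336 ± 124 (SD, n = 3) with cisplatin in wildtype and from 2104 ± 211 to 1047 ± 27.6 in Rb null cells. It was called in Rb null cells, and its change in wildtype cells (log2 -0.44 ± 0.0835, adjusted p = 0.000443) was under 1.5-fold. Sqle, squalene epoxidase, had signals of 1094, 1114 and 1124 on the untreated and 793, 808 and 809.8 on the treated wildtype arrays, and 1509, 1443 and 1346 on the untreated and 750.5, 1022 and 769 on the treated Rb null arrays. Every treated array was below every untreated one, and the treated genotypes overlapped. In wildtype cells the change of Sqle (log2 -0.46 ± 0.0991, adjusted p = 0.00117) was under 1.5-fold. Fdft1, squalene synthase, was called in no comparison, with log2 changes of -0.41 ± 0.0876 (wildtype) and -0.18 ± 0.0876 (Rb null).

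The steps from lanosterol to cholesterol went in both directions. Nsdhl, an X-linked dehydrogenase that helps to remove methyl groups from the sterol ring, fell in both genotypes, and the difference of its responses was log2 -0.041 ± 0.16. Sc5d had signals of 587, 607 and 584 on the untreated and 1312, 1354 and 1274 on the treated wildtype arrays, and 557, 655 and 623 on the untreated and 1192, 1196 and 1217 on the treated Rb null arrays. The treated arrays of both genotypes were all above the untreated ones. A second, weaker probe set of Sc5d gave log2 -0.32 ± 0.18 (wildtype) and -0.31 ± 0.18 (Rb null), neither of them called, so the rise rests on 1 of its 2 probe sets. Dhcr7 had signals of 238, 222 and 249 on the untreated and 305, 272 and 224 on the treated wildtype arrays, and 212, 219.8 and 202 on the untreated and 458, 367 and 441 on the treated Rb null arrays. The cisplatin-treated Rb null arrays stood above all 9 others. Lss, Msmo1, Hsd17b7 and Ebp, which act between squalene epoxide and the last steps, were called in no comparison. For Msmo1, a methylsterol oxidase, the untreated Rb null arrays were far apart (1069.8, 2149.9 and 1337).

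In the fatty acid branch the elongases Elovl5 and Elovl6 were the 2 genes called on their main probe sets. Elovl6 had signals of 430.3, 309 and 384 on the untreated and 228, 183 and 198 on the treated wildtype arrays, and 496, 512 and 466 on the untreated and 130.3, 124 and 142 on the treated Rb null arrays. The 4 groups did not overlap, with the untreated Rb null arrays highest and the treated Rb null arrays lowest. Elovl5, which elongates polyunsaturated fatty acids, fell in Rb null cells from 1869 ± 32.5 to 1022 ± 102 (SD, n = 3). In wildtype cells its change from 1460.4 ± 81.5 to 1013 ± 69.4 (log2 -0.52 ± 0.0806, adjusted p = 6.97e-05) was under 1.5-fold. A second probe set of Elovl5, of a kind that can cross-hybridize, had log2 -0.51 ± 0.14 in Rb null cells and was not called.

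The synthase and the desaturases stayed within 1.5-fold on their main probe sets. Fasn, fatty acid synthase, had signals of 1608, 1572 and 1432 on the untreated and 1255, 1090.3 and 1204 on the treated wildtype arrays, and 1612, 1768 and 1705 on the untreated and 1468, 1486 and 1479 on the treated Rb null arrays. The treated wildtype arrays were the lowest, at a log2 change of -0.38 ± 0.0716, adjusted p = 0.000452. Scd1, a stearoyl-CoA desaturase, had signals of 1158, 1071 and 1126 on the untreated and 1302, 1172 and 1118 on the treated wildtype arrays, and 946, 918 and 927 on the untreated and 1058, 1096 and 1182 on the treated Rb null arrays. On this probe set the untreated Rb null arrays were the lowest, at log2 -0.26 ± 0.0741, adjusted p = 0.0136 against untreated wildtype. On a second, weaker probe set Scd1 had log2 0.0402 in that comparison and 0.50 with cisplatin in wildtype cells, and was called in neither. Scd2, its relative, had signals of 3718, 3974 and 4069 on the untreated and 2969.6, 2908 and 3228 on the treated wildtype arrays, and 3154, 3431 and 3402 on the untreated and 2506, 2478 and 2842 on the treated Rb null arrays. The treated arrays of each genotype lay below its untreated arrays. On this probe set the change with cisplatin in Rb null cells was log2 -0.35 ± 0.0688, while the other 2 probe sets were called lower there, at -0.84 ± 0.0789 and -0.94 ± 0.0695. Acly, which supplies cytosolic acetyl-CoA, had log2 -0.37 ± 0.0621 in wildtype and -0.36 ± 0.0621 in Rb null cells. Elovl1, an elongase of very long chains, and the desaturases Fads1 and Fads2 were called in no comparison on their main probe sets, and 1 of the other probe sets of Elovl1 was called higher with cisplatin in Rb null cells (0.65 ± 0.0688, adjusted p = 1.16e-06). That probe set is of a kind that can cross-hybridize.

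Acaca and Acss2 were too weak for the main test. Acaca, the acetyl-CoA carboxylase of the committed step of fatty acid synthesis, was measured by 1 probe set with signals of 135, 142 and 143 on the untreated and 73.9, 63.3 and 39.8 on the treated wildtype arrays, and 152, 196 and 159 on the untreated and 56.1, 65.6 and 80.2 on the treated Rb null arrays. All treated arrays lay below all untreated arrays. Without the filter on weak signals its log2 change was -1.15 ± 0.21, adjusted p = 0.000786 in wildtype and -1.21 ± 0.21, adjusted p = 0.000384 in Rb null cells. Acss2, an acetyl-CoA synthetase, passed in no comparison without the filter, and its adjusted p was 0.380 or more on both probe sets.

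Of the regulators, Srebf2, whose product chiefly drives sterol genes, fell with cisplatin in both genotypes. Its signal was 840.2, 804 and 862 on the untreated and 543, 529 and 570.1 on the treated wildtype arrays, and 1031, 1068 and 900.3 on the untreated and 391, 457 and 369.9 on the treated Rb null arrays. The groups did not overlap, and the Rb null arrays were above the wildtype arrays without cisplatin and below them with it. A second probe set gave log2 changes of -0.24 ± 0.13 in wildtype, not called, and of -1.22 ± 0.13 in Rb null cells, called, with a difference of responses of -0.97 ± 0.19, adjusted p = 0.00106. Srebf1, whose product chiefly drives fatty acid genes, had signals of 735, 741 and 816 on the untreated and 1059.9, 1166 and 1002 on the treated wildtype arrays, and 1042, 799.8 and 1059.5 on the untreated and 1211, 1164 and 1060.0 on the treated Rb null arrays. It was called in no comparison, and its largest change was log2 0.49 ± 0.10, adjusted p = 0.00119, with cisplatin in wildtype cells. Stard4 had signals of 251, 314 and 320.5 on the untreated and 276, 248 and 227 on the treated wildtype arrays, and 537, 479 and 531 on the untreated and 345, 349 and 405 on the treated Rb null arrays. The genotypes did not overlap in either condition, and after cisplatin their difference (log2 0.53 ± 0.12, adjusted p = 0.00148) was under 1.5-fold. Its second probe set was called higher in Rb null cells without and with cisplatin (0.80 ± 0.13 and 1.19 ± 0.13).

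The branches were described by their medians and counts. In wildtype cells the median log2 change with cisplatin was -0.15 over 17 sterol genes and -0.37 over 9 fatty acid genes, beside 0.0565 over all 7945 genes. In Rb null cells the medians were -0.24 and -0.28, beside -0.0171. By count, 4 sterol genes fell and 1 rose in wildtype cells, and 5 fell and 3 rose in Rb null cells, or 29.4% and 47.1% called, against 27.5% and 36.9% of all genes. In the fatty acid branch 1 gene fell in wildtype cells, 2 fell in Rb null cells and 0 rose by limma in either. That was 11.1% and 22.2% of the branch called. At an unadjusted p under 0.05 of that test, 0 were higher and 5 lower in wildtype, against 2744 and 2107 of all 7945 genes. In Rb null cells 3 were higher and 6 lower, against 2588 and 2820 of all 7945 genes. The log2 change was negative for 8 of 9 fatty acid and 9 of 17 sterol genes in wildtype, and for 6 of 9 and 12 of 17 in Rb null cells. Of all 7945 genes it was negative for 3547 in wildtype and 4062 in Rb null cells. These counts use main probe sets. In wildtype, Fads2 (-0.20 and 0.35) and Elovl1 (-0.0488 to 0.24) had probe sets on both sides of 0, as did Hmgcs1, Mvd, Fdft1 and Sc5d. With each array centred on its median the Rb null medians became -0.0964 and -0.13, and that of all genes 0.13. Between untreated genotypes the medians were 0.12 (sterol) and -0.0178 (fatty acid), beside -0.00934 over all genes, and after cisplatin they were 0.00509 and 0.0103, beside -0.0512. The untreated fatty acid median changed sign without untreated Rb null array 1 (0.0886) or untreated wildtype array 3 (0.0904). The sterol median became 0.20 between untreated genotypes and -0.0670 with cisplatin in wildtype cells when untreated wildtype array 2 was left out. No test was made of a branch against the other. On main probe sets 14 of the 29 genes were never called over all 5 comparisons, 6 of the sterol branch, 7 of the fatty acid branch and Srebf1. Their log2 changes on these probe sets lay between -0.41 and 0.56 in the 4 comparisons of groups. Among them, other probe sets of Scd2 and Elovl1 were called with cisplatin in Rb null cells, at up to -0.94 and 0.65. The branch counts above also use main probe sets.

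Probe sets of the same gene did not always give the same call. Of 16 genes with at least 2 tested probe sets, all 16 gave 1 call throughout between untreated genotypes, 12 after cisplatin, 13 for cisplatin in wildtype, 10 for cisplatin in Rb null cells and 12 for the difference of responses. In 0 cases were 2 probe sets of a gene called in opposite directions. The 4 probe sets of Hmgcs1 all fell in Rb null cells (log2 -1.16 to -0.90). In wildtype cells they had -0.82 ± 0.0914, -0.83 ± 0.13, -0.35 ± 0.0910 and 0.019 ± 0.11, of which the first pair was called. The probe set with -0.83 is of a kind that can cross-hybridize. On the uncalled pair the genotypes differed after cisplatin (-0.71 ± 0.0910 and -1.23 ± 0.11), and so did the responses (-0.69 ± 0.13 and -1.17 ± 0.15). On the main probe set both values were negative as well but not called (-0.28 ± 0.0914 and -0.28 ± 0.13). The second probe sets of Mvk (-1.02 ± 0.28, adjusted p = 0.00789) and of Srebf2 (-0.81 ± 0.13, adjusted p = 0.000166) were likewise called lower in Rb null cells after cisplatin, so the count of 0 genes called lower there holds for main probe sets. That of Mvk had weak signals on the treated Rb null arrays (42.3 ± 21.7, SD, n = 3). The 3'/5' ratio of the actin control probe sets was 1.10 to 1.23 on untreated and 1.19 to 1.32 on treated arrays, and that of Gapdh 0.759 to 0.800 and 0.782 to 0.881, and the part of RNA quality in the disagreements was not tested.

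**Figure D4:**
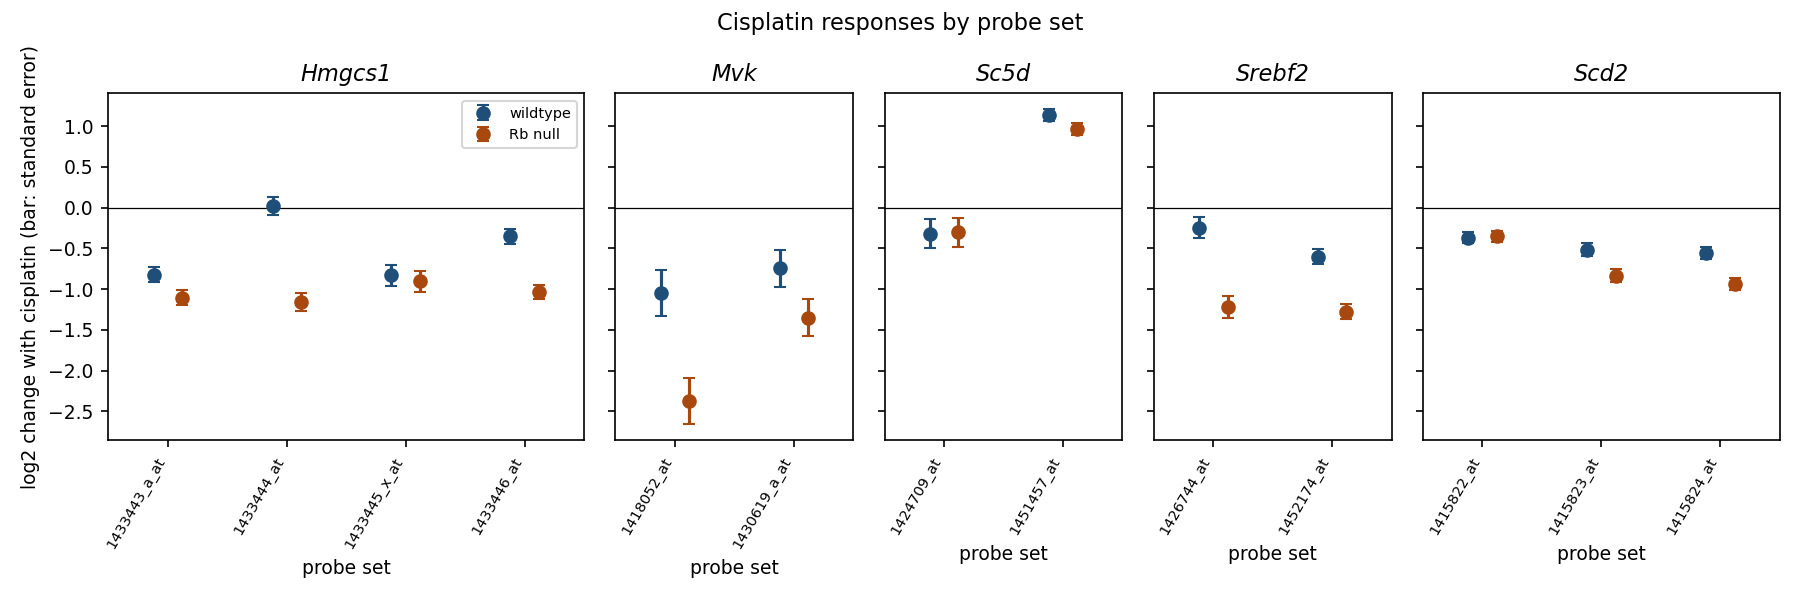
Log2 change with cisplatin (points, with standard errors) in wildtype and Rb null cells for every tested probe set of 5 genes (horizontal axis). All values of Mvk and Scd2 lie below 0, 1 wildtype value of Hmgcs1 is at 0.0189, and the probe sets of Sc5d lie on opposite sides of 0.

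Other genes of lipid metabolism were taken from a list of 43, of which 29 were tested; the list is not complete, and its counts cover only the genes on it. Without cisplatin 1 was higher in Rb null cells, Mylip, a sterol-induced ubiquitin ligase gene (log2 0.69 ± 0.0968, adjusted p = 7.20e-05), and 0 were lower by limma. Of all genes 8.07% and 5.08% were called. At an unadjusted p under 0.05 of that test, 1815 of all 7945 genes were higher and 1685 lower. Of these 29 genes, 4 were higher and 13 lower at that threshold. After cisplatin 2 were higher and 6 lower by genotype (9.67% and 13.3% of all genes), among them the elongase gene Elovl4 (log2 1.03 ± 0.16) and the lipoprotein receptor gene Vldlr (-0.83 ± 0.16). The probe set of Vldlr is of a kind that can cross-hybridize, and its mean signal was 87.6 in treated Rb null cells. Cisplatin raised 3 and lowered 6 in wildtype cells, where 14.8% and 12.7% of all genes were called, and raised 7 and lowered 9 in Rb null cells, where 16.6% and 20.3% were. Lpin1, a phosphatidate phosphatase, rose most (log2 2.48 ± 0.10 in wildtype and 2.23 ± 0.10 in Rb null cells), followed by the sterol exporter Abcg1 (1.23 ± 0.15 and 1.81 ± 0.15). Of the machinery that processes SREBP, Scap rose (0.73 ± 0.0910 and 0.65 ± 0.0910), while the protease gene Mbtps1 fell (-0.62 ± 0.0855 and -1.05 ± 0.0855). Me1, a source of NADPH for lipid synthesis, fell as well (-0.96 ± 0.0922 and -1.33 ± 0.0922). The difference of responses was called for 4 of these genes (23.7% of all genes), positive for Elovl4 (1.56 ± 0.23) and negative for Dhdds (-0.77 ± 0.14), Acsl5 (-0.66 ± 0.14) and Mylip (-0.63 ± 0.14).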

How the data were processed

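Signals of 12 arrays (3 in each of 4 groups) were used as deposited. They are intensity values that the authors made with MAS5, per the submitters' processing notes; its version is not given in the sources used here, and the trimmed mean of every array was 500.1 to 500.2. The deposited intensity gives no read depth, and the number of arrays limits the precision. Of 22690 probe sets, 20380 carried 1 gene symbol in the platform annotation, 691 several and 1555 none.

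Signals were converted to log2(signal + 10.4), the added value being the 10th percentile of all signals, so fold changes of weak genes are understated. The 64 controls and the 40% of probe sets with the lowest mean were left out. Group means were fitted over all 12 arrays with limma 3.58.1 (R 4.3.3; lmFit, eBayes with trend, two-sided, Benjamini-Hochberg). Each gene was represented by its brightest probe set without a cross-hybridization suffix, where it had one. Named were, in each comparison, every called gene up to 4 per direction and branch (all where 5 or fewer were called) and called regulators; array values were given for genes called in at least 3 comparisons and for a fixed set of key enzymes and regulators, and values of other genes were added after they were seen. The members and lists were chosen with earlier results of these data known. The fit was tested on simulated data. Alternatives covered the added value, filter, normalization, probe set, fold minimum, variance prior, samples fitted, replicate labels as a block and each array left out.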

Additional observations from a re-analysis of the deposited data

Results flagged for a closer look

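The cisplatin response differed between Rb null and wildtype cells, in the limma test of the difference itself, for Elovl6 (log2 -0.98, Rb null minus wildtype), Cyp51 (-0.71), Srebf2 (-0.68), Mvd (-0.61) and Dhcr7 (0.80). On main probe sets Elovl6 and Srebf2 fell in both genotypes, Dhcr7 rose in Rb null cells, and Cyp51 and Mvd were called in neither genotype alone. The fall of Srebf2 in wildtype cells (log2 -0.60) kept its call in 6 of 10 other settings and with 4 of 6 arrays left out in turn. All 5 differences use the untreated wildtype arrays, which carry Y-linked transcripts and little Xist, so the genotype and the sex of that culture cannot be told apart in them. The call of Mvd held in 3 of 9 other settings and with 3 of the 12 arrays left out in turn.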

How the results depend on the processing

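Of 27 called gene changes followed under other settings, 254 of 277 values kept their call, 20 lost it and 3 reversed; with an array left out, 175 of 192 kept it and 17 lost it. The reversals came from the second brightest probe set, a setting chosen after seeing the data: Hmgcs1 with cisplatin in wildtype (log2 0.0189) and Sc5d in wildtype (-0.32) and Rb null cells (-0.31). With that probe set the untreated genotype median of the fatty acid branch was 0.14, 3 genes were lower by genotype after cisplatin, 0 rose and the fatty acid median was -0.25 with cisplatin in wildtype, and the difference of responses had 2 positive calls and a fatty acid median of -0.18. With the mean of all probe sets the values were 0.0840 for the untreated fatty acid median, 4 lower by genotype after cisplatin, 0 higher and 3 lower with cisplatin in wildtype, and, for the difference, 2 positive calls and a fatty acid median of -0.14. An added value of 1 gave 1 gene lower by genotype after cisplatin, and the 25th percentile gave 1 higher. With 60% of probe sets left out, fewer genes were tested (22): 1 was higher by genotype after cisplatin, 3 fell in wildtype, the difference had 0 positive and 2 negative calls and a sterol median of -0.17, and the untreated fatty acid median was -0.13. Quantile normalization gave 2 positive and 2 negative differences, and so did median centring, with medians of -0.0964 (sterol) and -0.13 (fatty acid) for cisplatin in Rb null cells and of 0.0223 and 0.12 for the difference. In both, Srebf2 (log2 -0.57 and -0.58) and Mvd (-0.49 and -0.51) lost their called difference. Mvd kept its call in 3 of 9 other settings, losing it also with the 25th percentile added, with no filter and with the second probe set.

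With no fold minimum the counts higher and lower were 10 and 4 between untreated genotypes, 7 and 9 after cisplatin, 4 and 13 for cisplatin in wildtype and 8 and 16 in Rb null cells, with 4 positive differences. At 2-fold they were 0 higher (untreated), 1 higher (after cisplatin), 0 lower (wildtype), 0 higher and 4 lower (Rb null) and 0 and 0 (difference). Counts close to those of the main setting are left out here. Shares of all genes without a fold minimum or at 2-fold were not computed, so these counts have no background beside them. With 1 array left out, the counts by genotype after cisplatin ranged from 1 to 3 higher and 0 to 1 lower, falls in wildtype from 3 to 7, and positive differences from 1 to 2. The medians then ranged from 0.0716 to 0.20 (sterol) and -0.0871 to 0.0904 (fatty acid) between untreated genotypes, from -0.18 to -0.0670 for sterol genes with cisplatin in wildtype and from -0.16 to -0.0276 for their difference. Correlations between same-labelled arrays, of deviations from their group means, were -0.19 to 0.11. These values show no pairing by label, but arrays of unlike label were not compared, so a pairing is not excluded. With the replicate block, possible for the genotype comparisons and the difference only, Mvd had log2 -0.61 (adjusted p = 0.0749) and lost its call. The cause of these changes was not tested. Genes with weak signals, such as Acaca, are limited by their signal over background.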
